A study of Mus musculus with 33 samples.

Results

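The genes examined here encode the respiratory chain of the inner mitochondrial membrane, as far as it is specified by nuclear genes, together with the ATP synthase. They were chosen by name alone from a table of 14862 gene rows: every row beginning with Nduf, Uqcr or Atp5, every row that is Cox followed by 4 to 8, and Sdha, Sdhb, Sdhc, Sdhd, Cyc1 and Cycs. The rule found 92 genes. Of these, 81 encode subunits or cytochrome c: 36 of complex I, 4 of complex II, 9 of complex III, 16 of complex IV, 15 of complex V and the carrier Cycs. The other 11 share a name with the subunits but encode assembly factors or relatives of subunits. Expression was not part of the choice.

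Complex I (NADH dehydrogenase) and complex II (succinate dehydrogenase) pass electrons to ubiquinone, complex III passes them on to cytochrome c, and complex IV reduces oxygen. Complexes I, III and IV pump protons, and complex V uses the gradient to make ATP. The heart draws most of its ATP from this chain after birth, and several complex IV subunits exist as a ubiquitous isoform and a second isoform typical of heart and skeletal muscle. The subunits encoded by the mitochondrial genome were not analysed here.

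The values are read counts from 33 single cells, freshly dissociated from the ventricles of transgenic mice carrying mAG-hGem. This reporter is a green fluorescent protein (Azami Green) fused to geminin, which accumulates in cells between S phase and M phase. Cells were sorted as mAG-hGem positive or negative. Embryonic day 14.5 (E14.5) gave 10 positive and 11 negative cells, and postnatal day 5 (P5) gave 6 of each. The labels state that cells were kept after a PCR for Tnnt2, a cardiomyocyte gene. The reporter was carried by all 4 groups, and the promoter that drives it, the strain and the number of animals or litters are not given in the sources used here. The study's question, from its title, concerned Ect2 and division of heart muscle cells; the comparisons below are those its design implies, by age and by reporter.

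Because each sample was 1 cell and no animal is named, every group stood for 1 sample and no difference below has a test. Levels are counts per 1000000 reads (CPM) of a cell, or of the summed counts of a group, and ratios between groups are log2 ratios of the summed CPM. Intervals cover counting error only. The spread from cell to cell, which is wider, is given as the lowest, median and highest cell. A gene was counted as higher or lower in a group when the ratio reached 2-fold and the 2 groups together held 10 counts or more, and the share of all genes that did so is the background.

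Total counts per cell ran from 2.55 M to 38.5 M (M, 1000000), with a median of 12.8 M. All cells are labelled cardiomyocytes, and this was checked against 14 cardiomyocyte genes, 8 endothelial genes, 7 fibroblast and mural genes, 4 red blood cell genes and 3 leukocyte genes. The summed cardiomyocyte genes lay between 15994 and 51408 CPM in the 21 E14.5 cells. In 5 of the 6 P5 positive cells they lay between 24110 and 121870 CPM, but cell L2P12 held 117.9 CPM of them beside 18963 CPM of endothelial genes. In the 6 P5 negative cells the cardiomyocyte genes summed to between 0.967 and 3293 CPM, with Tnnt2 between 0 and 127.6 CPM, below the endothelial sum in 5 cells (13218 to 38346 CPM) and below the fibroblast and mural sum in L2N12 (19402 CPM). One E14.5 negative cell, N10, held both cardiomyocyte genes (24961 CPM) and fibroblast and mural genes (46245 CPM). Red blood cell genes summed to 2840 CPM in L1N3 and 2939 CPM in L2N10, both P5 negative. The highest leukocyte sum was 379.2 CPM, in the E14.5 negative cell N21. The group names below are therefore those of the labels. The sums, counts and medians of the subunits by age, and those of each complex before GC centring, are given with and without L2P12. So are the single genes whose 2-fold call by age changes without it. The complex I core, the genes that only share a name with the subunits and the other pathway lists are given by age with all cells.

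The subunits took a larger share of reads in P5 positive cells than in either E14.5 group, apart from cell L2P12. Summed over the 81 genes, they held 8.51% of reads in E14.5 positive cells (lowest 6.50%, median 7.78%, highest 11.4%) and 8.47% in E14.5 negative cells (4.93%, 8.54% and 11.6%). In P5 positive cells the share was 12.7% in the summed counts. The single cells held 17.97% (L1P5), 19.8% (L2P3), 13.2% (L2P7), 12.4% (L2P8), 21.8% (L2P10) and 2.46% (L2P12). Every P5 positive cell but L2P12 thus lay above all 21 E14.5 cells, and L2P12 lay below all of them. P5 negative cells held 2.17%, between 1.39% (L2N10) and 3.21% (L2N4), so that L2P12 fell within their range.

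**Figure D1:**
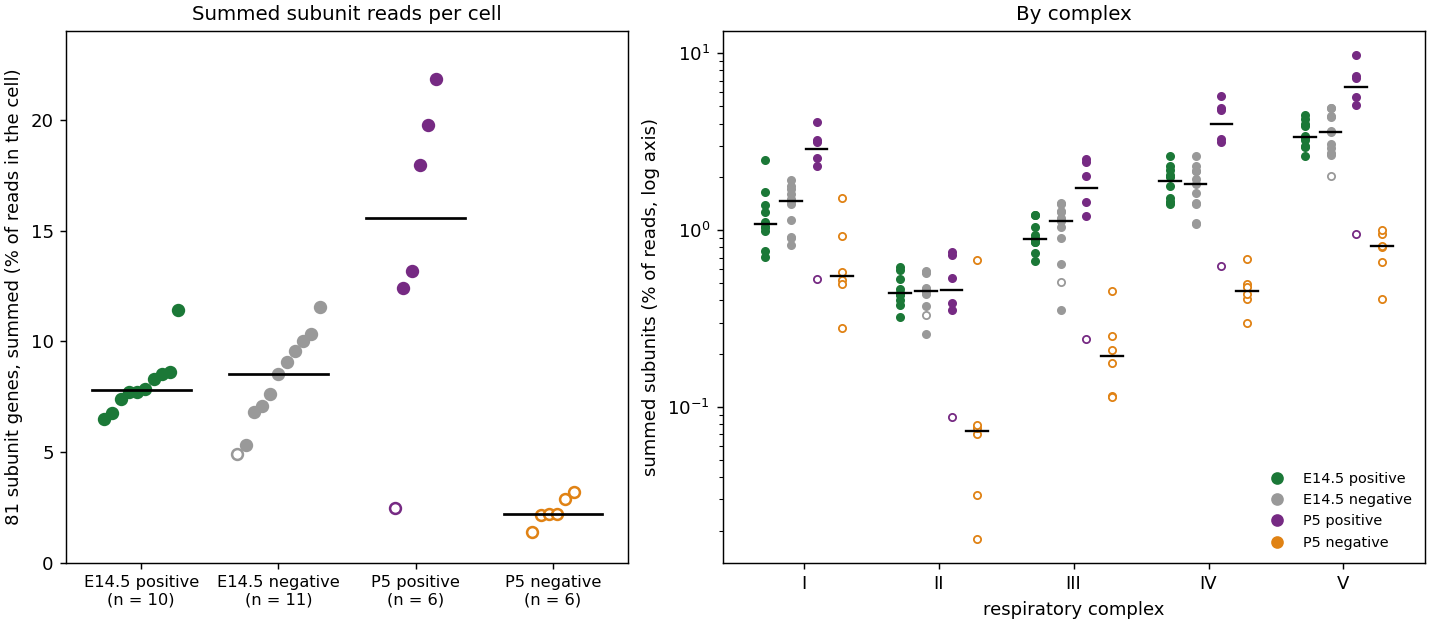
Summed subunit reads per cell. Left, the 81 subunit genes as % of the reads of each cell; right, the same by complex on a log axis; points are cells, black bars group medians, and open points are cells in which the cardiomyocyte genes sum to less than those of another cell type. Filled P5 positive cells lie between 12.4% and 21.8%, above the E14.5 cells (4.93% to 11.6%), and the open P5 cells lie between 1.39% and 3.21%.

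By complex, the summed reads of P5 positive cells exceeded those of E14.5 positive cells 1.65-fold for complex I, 1.502-fold for complex III, 1.78-fold for complex IV and 1.38-fold for complex V. Complex II was the exception, at a log2 ratio of -0.26. Without L2P12 the ratios were 2.06-fold for complex I, 1.91-fold for complex III, 2.25-fold for complex IV and 1.75-fold for complex V, and complex II came to a log2 ratio of 0.06. In the summed complex II genes the 5 other P5 positive cells (3535 to 7489 CPM) overlapped the E14.5 positive cells (3239 to 6210 CPM).

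Gene by gene, the comparison of P5 positive with E14.5 positive cells asks how cells carrying the reporter differ with age. Its log2 ratio is called the age ratio below. All 81 subunits had at least 10 counts, and their median age ratio was 1.49, against -0.39 over all 12261 genes that passed. Of the subunits, 46 were at least 2-fold higher (56.8%; 30.3% of all genes), 3 were at least 2-fold lower (3.70%; 40.9% of all genes) and 32 lay within 2-fold. Among the 78 subunits that reached 50 CPM in the higher group, 44 were higher and 2 lower, against 27.8% and 33.3% of the genes at that level. Of these 78, the genes Ndufa7, Ndufa8, Ndufb11 and Ndufs8 had every P5 positive cell above every E14.5 positive cell (5.13%; 0.762% of all genes at that level), and none had every P5 cell below (1.8% of all genes). Without L2P12 the number of subunits with all 5 P5 positive cells above all 10 E14.5 positive cells was 26 (33.3%; 2.36% of all genes), and again none lay below (3.15% of all genes). All 81 age ratios were higher without L2P12, by between 0.05 and 0.41, the median was 1.796 (-0.93 over all genes), and 53 subunits were at least 2-fold higher and 2 lower (24.5% and 49.0% of all genes). The 7 genes that became 2-fold higher were Atp5b, Atp5h, Atp5k, Cox5b, Ndufc1, Ndufs4 and Sdhd, and Ndufb3 was no longer 2-fold lower. Without that cell the medians were 1.87 for complex I, 0.85 for complex II, 1.95 for complex III, 1.98 for complex IV and 1.09 for complex V, with 24, 2, 6, 12 and 9 genes at least 2-fold higher and 0, 1, 0, 1 and 0 lower.

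The 26 genes without overlap comprised 11 genes of complex I, 1 of complex II, 5 of complex III, 5 of complex IV and 4 of complex V.

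Transcript base composition moved with this comparison. Across the 3846 genes at 50 CPM with a matched transcript, the age ratio had a Spearman correlation of 0.45 with transcript GC content, and across the 78 subunits it was 0.57; these are descriptions across genes of the same libraries. When all genes were split into 10 equal bins by GC content, the median age ratio went from -1.16 in the lowest bin to 1.94 in the highest. The negative cells, whose marker genes differ between the ages, went from -0.68 to 2.19 when the ages were compared. Within an age the correlation over all genes was -0.05 for positive over negative cells of E14.5 and 0.06 for those of P5, and the bins lay between -0.19 and 0.09 and between -0.80 and -0.09. The mean GC content of the reference transcripts, weighted by the counts of a cell, lay between 46.7% and 48.1% in the E14.5 cells. It lay between 47.7% and 51.1% in the P5 cells. The bases of the reads themselves were not examined.

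Each ratio was therefore also given relative to the median of genes of like GC content, a setting chosen after the data were seen. On that scale the median of the 78 subunits was 0.83, with 33 at least 2-fold higher and 4 at least 2-fold lower (25.1% and 26.1% of all genes), and 62 of the 78 lay above 0. Without L2P12 it was 1.32, with 49 higher and 1 lower (25.6% and 28.2% of all genes). Age and library set cannot be told apart here, because no cell of one age is known to have been prepared with cells of the other. The part of base composition in the age ratios was not tested beyond this setting, and values on this scale are called GC-centred below.

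**Figure D2:**
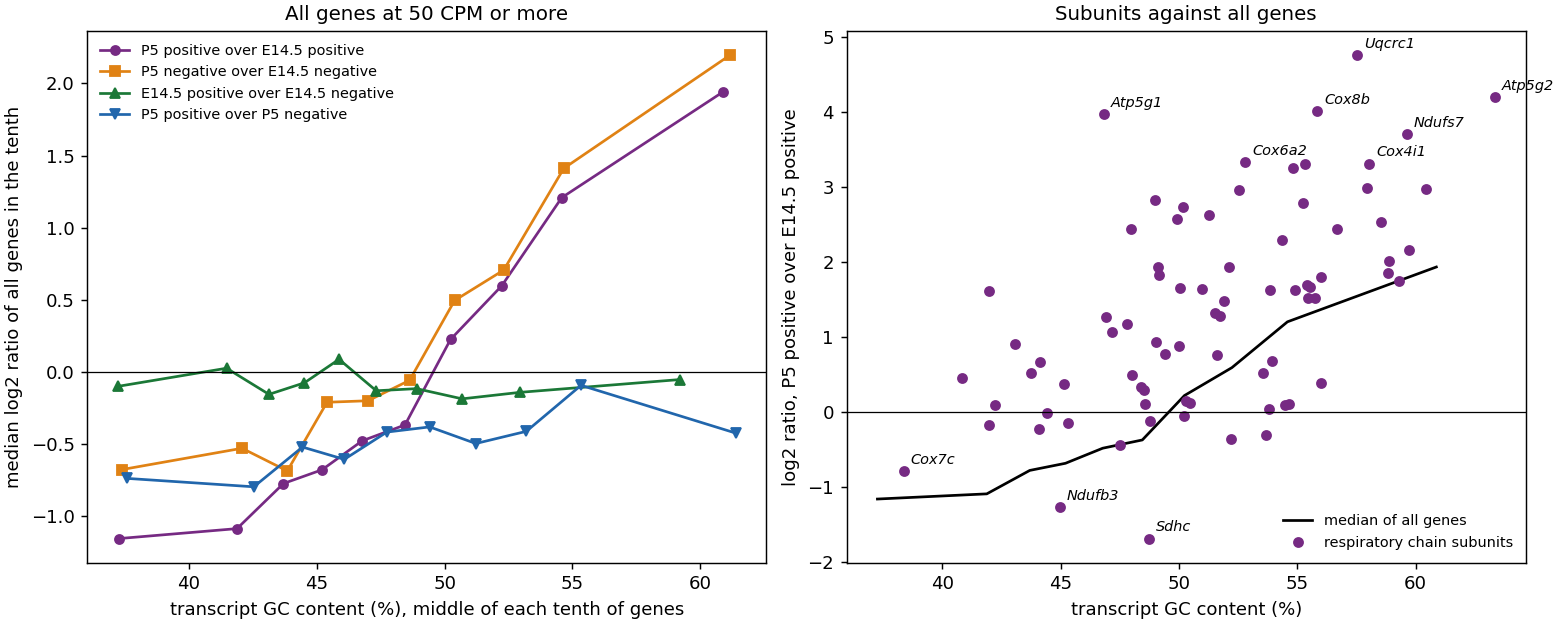
Log2 ratios against transcript GC content. Left, the median log2 ratio of all genes at 50 CPM in each of 10 bins of GC content for 4 pairs of groups; right, the age ratio of the 78 subunits (points) and the all-gene medians (line). Both lines that compare ages climb with GC content, from -1.16 to 1.94 in positive cells, while those within an age stay between -0.80 and 0.09, and 62 of the 78 subunits lie above 0 once genes of like GC content are subtracted.

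**Figure D3:**
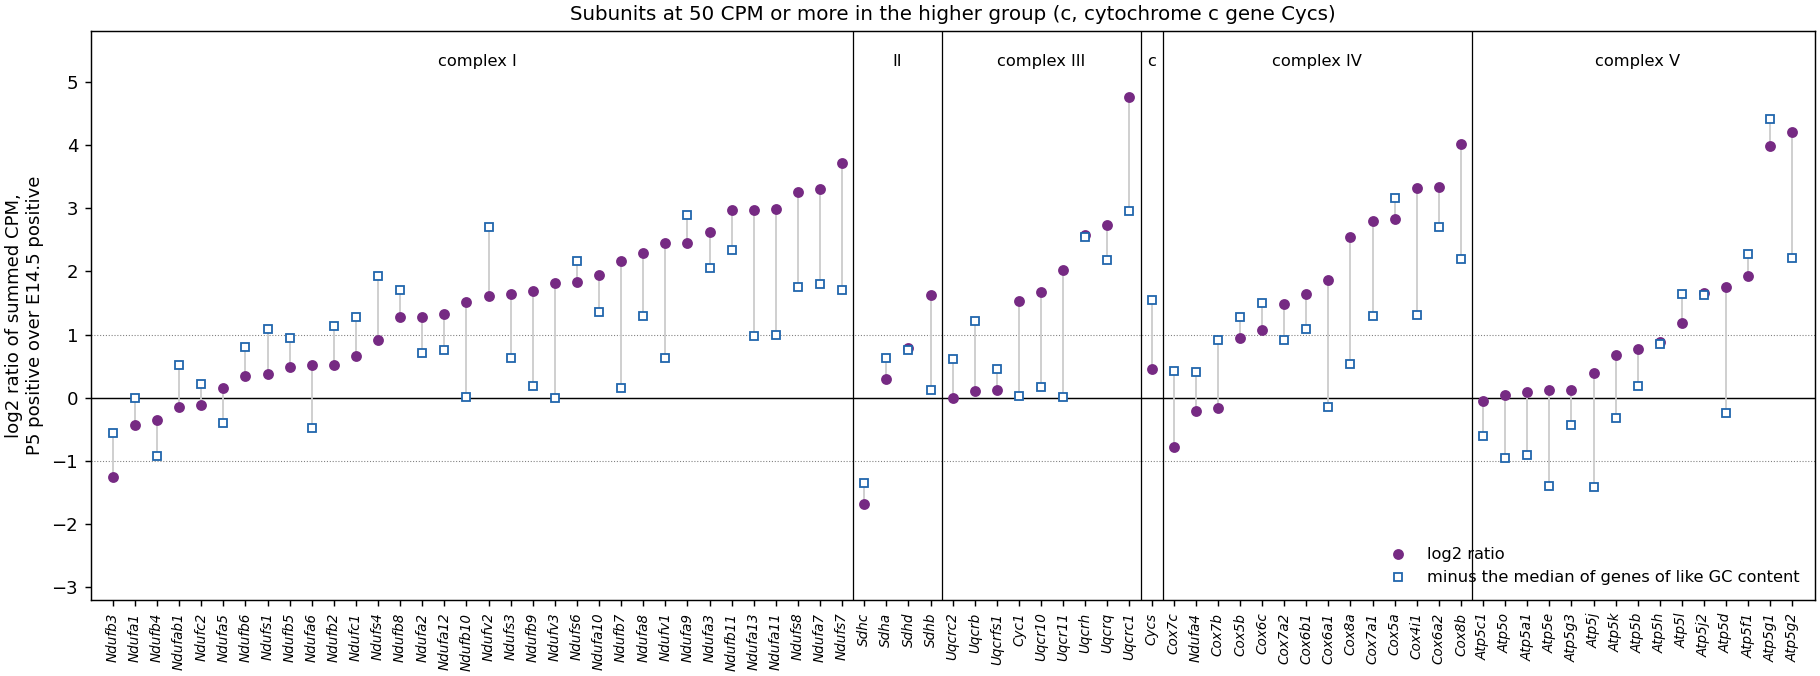
Age ratio (log2, summed CPM of P5 positive against E14.5 positive cells) for 77 of the 78 subunits at 50 CPM or more in the higher group, ordered within each complex. Filled points are the ratio, open squares the GC-centred ratio, dotted lines mark 2-fold; 21 of the 34 complex I genes drawn, 6 of 9 complex III genes and 10 of 14 complex IV genes lie above the upper line, against 6 of 15 complex V genes, and Ndufb3 and Sdhc lie below the lower one. Of all genes at that level, 27.8% were at least 2-fold higher and 33.3% lower.

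Complex I had a median log2 ratio of 1.57 (GC-centred 0.95). Of its 36 genes, 22 were at least 2-fold higher and 1 lower (61.1% and 2.78%, against 30.3% and 40.9% of all genes). Its core, which carries the flavin and the iron-sulfur clusters, had 5 of 7 genes higher, among them Ndufs8 at 3.26 (GC-centred 1.75). Ndufs7, which holds the cluster that hands electrons to ubiquinone, ranged from 6.93 to 110 CPM in E14.5 positive cells (median 27.6). In P5 positive cells it ran from 66.1 (L2P12) to 1495 CPM (L2P8), with a median of 441, and the log2 ratio was 3.71 (95% interval 3.68 to 3.75; GC-centred 1.71; 2.82 without L2P8). Only L2P12 overlapped the E14.5 cells. Ndufv1, the flavin and NADH-binding subunit, ranged from 15.6 to 260.2 CPM (median 95.9) at E14.5 and from 25.3 to 1012 CPM (median 487) at P5, an age ratio of 2.44 (GC-centred 0.63).

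In contrast, Ndufs1, the largest iron-sulfur subunit, lay within 2-fold before GC centring. It had medians of 319 CPM at E14.5 and 491 CPM at P5 (log2 ratio 0.38), and the cells overlapped. Its GC-centred ratio was 1.08, past 2-fold and above that of Ndufv1 (0.63).

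Among accessory subunits, Ndufb3 went the other way from most of the complex. It ranged from 956 to 5407 CPM in E14.5 positive cells (median 1404) and from 277 to 4008 CPM (median 1114) at P5, an age ratio of -1.26. One embryonic cell, G28, held the highest value, and without it the ratio was -0.83, inside 2-fold, as it was without L2P12 (-0.97); the GC-centred ratio was -0.56. The accessory subunits without overlap between the groups were Ndufa7 (age ratio 3.31), Ndufa8 (2.29) and Ndufb11 (2.97); Ndufb11 ranged from 73.4 to 200.3 CPM at E14.5 and from 273 CPM in L2P12 to 1640 CPM in L2P10. Ndufs5 had 0 counts in E14.5 positive cells and 11 in P5 positive cells, and at most 2 in the negative groups; the counting rule for reads that fit several places is not given in the sources used here.

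Complex II, which also belongs to the citric acid cycle, was split. Sdhc, one of the membrane anchors, had the lowest age ratio of the members at 50 CPM. It ranged from 1501 to 5054 CPM in E14.5 positive cells (median 2717) and from 248 to 2661 CPM (median 1123) at P5. The groups overlapped, and the log2 ratio was -1.68 (95% interval -1.69 to -1.67), -1.35 when GC-centred, -2.31 without L2P3 and -1.37 without L2P12. Sdhb, the iron-sulfur subunit, was higher instead, with 224 to 545 CPM (median 303) at E14.5 and 599 to 1888 CPM in the 5 P5 positive cells other than L2P12 (148 CPM). Its log2 ratio was 1.63, but 0.12 when GC-centred. Sdha, the flavin subunit that oxidises succinate, and Sdhd, the other anchor, lay within 2-fold at 0.30 and 0.79 (GC-centred 0.63 and 0.75). Without L2P12, Sdhd came to 1.04, past 2-fold.

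Complex III had a median log2 ratio of 1.68 (GC-centred 0.61). Of its 9 genes, 6 were at least 2-fold higher (66.7%, against 30.3% of all genes) and none lower (40.9% of all genes). Uqcrc1, a core protein, had the highest age ratio of the members at 50 CPM. It ranged from 2.18 to 50.2 CPM in E14.5 positive cells (median 16.5), and the P5 positive cells held 14.9 (L1P5), 104 (L2P3), 699 (L2P7), 1276 (L2P8), 1064 (L2P10) and 235 CPM (L2P12). All but L1P5 were above every E14.5 positive cell. The log2 ratio was 4.76 (95% interval 4.71 to 4.81), 2.95 when GC-centred and 4.13 without L2P8. The partner core protein Uqcrc2 did not follow it: its medians were 1888 and 1619 CPM, and its log2 ratio was -0.01 (GC-centred 0.61). Uqcrfs1, the Rieske iron-sulfur protein, came to 0.11 (GC-centred 0.45). Cyc1, the cytochrome c1 that hands electrons to cytochrome c, came to 1.53 (GC-centred 0.02).

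Cytochrome c itself, encoded by Cycs, shuttles electrons between complexes III and IV. It ranged from 250.3 to 865 CPM in E14.5 positive cells (median 479) and from 216 to 1812 CPM in P5 positive cells (median 783). These ranges overlapped, and the log2 ratio was 0.46, or 1.54 when GC-centred.

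Complex V had a median log2 ratio of 0.76. Of its 15 genes, 6 were at least 2-fold higher (40.0%, against 30.3% of all genes) and none lower (40.9% of all genes). The GC-centred median was -0.25, with 5 higher and 2 lower (25.1% and 26.1% of all genes) and 7 of 15 above 0. The direction of this complex thus depended on that setting. Without L2P12 the GC-centred median was 0.19, with 6 higher and 1 lower (25.6% and 28.2% of all genes). The direction of complex V thus also depended on that cell. Its catalytic subunits Atp5a1 and Atp5b lay within 2-fold when all cells were summed. Atp5b ranged from 3128 to 9633 CPM (median 4711) in E14.5 positive cells and from 2014 to 16578 CPM (median 10936) at P5, an age ratio of 0.76, or 1.09 without L2P12, past 2-fold. Atp5a1 had medians of 3140 and 5346 CPM and a log2 ratio of 0.09 (GC-centred -0.91). The genes for the c ring of the membrane rotor did not move together. Its subunit is encoded by Atp5g1, Atp5g2 and Atp5g3, which give the same mature protein.

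Atp5g1 ranged from 32.5 to 617 CPM in E14.5 positive cells (median 190.0). The P5 positive cells held 1980, 2339, 3833, 10574 and 10042 CPM in L1P5, L2P3, L2P7, L2P8 and L2P10, and 319 CPM in L2P12, so 5 of 6 were above all E14.5 positive cells. The log2 ratio was 3.98 (GC-centred 4.41; 3.29 without L2P8), while Atp5g3 had 0.12 (GC-centred -0.44). Atp5g1 took 2.07% of the reads of the 3 genes in E14.5 positive cells (lowest 0.279%, highest 3.08%), 2.29% in E14.5 negative cells and 23.4% in P5 positive cells (lowest 7.02% in L1P5, highest 55.8% in L2P8). In P5 negative cells it took 4.64%. Atp5g2 ranged from 0.727 to 6.29 CPM in E14.5 positive cells and from 0 (L1P5) to 180.7 CPM (L2P8) in P5 positive cells, and its age ratio was 4.21 (GC-centred 2.21; 2.92 without L2P8).

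Complex IV had the highest median of the 5 complexes, 1.75 (GC-centred 1.18). Of its 16 genes, 11 were at least 2-fold higher and 1 lower (68.8% and 6.25%, against 30.3% and 40.9% of all genes). The lower gene was Cox7b2, a testis-typical relative of Cox7b, with counts in G10, G28 and N23 but in no P5 cell. Set against 3 counts over the P5 group, its age ratio was at most -5.30. Cox5a, which binds the matrix side of the catalytic core, ranged from 819.7 to 1691 CPM in E14.5 positive cells and from 5208 to 18808 CPM in the 5 P5 positive cells other than L2P12 (559 CPM), an age ratio of 2.83 (GC-centred 3.17). Cox4i1, the ubiquitous form of the regulatory subunit IV, ranged from 29.3 to 360.3 CPM at E14.5 (median 152) and from 149 to 4680 CPM at P5 (median 1214), where L1P5 alone overlapped. Its age ratio was 3.32 (GC-centred 1.32; 2.67 without L2P8). Cox6b1, on the side facing the space between the membranes, had 1.65, but 0.82 without L2P8. Cox4i2, the other form of subunit IV, was not among the gene rows that the rule found, so its share could not be given. Cox7c, a small subunit with an AT-rich transcript (GC content 38.4%), had medians of 11553 CPM at E14.5 and 6055 CPM at P5 and an age ratio of -0.79 (-1.44 without L2P3), but 0.43 when GC-centred. Ndufa4, first named as a complex I gene and now placed in complex IV, came to -0.22 (-0.98 without L2P3).

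The muscle isoforms of complex IV were measured as the share of the reads of a pair, which is no molar share because the transcripts differ in length. Cox6a2, the heart and skeletal muscle form of subunit VIa, took 46.8% of the reads of Cox6a2 and Cox6a1 in E14.5 positive cells (lowest 19.5% in G25, median 47.95%, highest 82.5% in G5) and 48.8% in E14.5 negative cells (26.2% to 78.5%). In P5 positive cells it took 79.0% (L1P5), 77.0% (L2P3), 74.9% (L2P7), 72.0% (L2P8) and 81.2% (L2P10), but 0.601% in L2P12. Those 5 cells lay above 9 of the 10 E14.5 positive cells and 10 of the 11 E14.5 negative cells, G5 and N3 being the exceptions that overlapped them. Summed, the P5 positive share was 71.1%, or 74.7% without L2P12.

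Both genes were higher at P5, Cox6a2 more so. Cox6a2 ranged from 95.2 to 409 CPM in E14.5 positive cells (median 246) and from 1185 to 5303 CPM in the 5 P5 positive cells, against 4.67 CPM in L2P12. Its log2 ratio was 3.34 (GC-centred 2.71; 2.63 without L2P8). Cox6a1 had a log2 ratio of 1.86, which the GC-centred value turned to -0.14, and 1.23 without L2P8. The transcript of Cox6a2 is lower in GC content (52.8%) than that of Cox6a1 (58.8%).

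Cox7a1, the heart and skeletal muscle form of subunit VIIa, was read the same way. In E14.5 positive cells it held 8.79% of the reads of Cox7a1 and Cox7a2 (lowest 2.91%, median 6.10%, highest 15.4%), and in E14.5 negative cells 8.41% (1.95% to 23.2%). The P5 positive cells held 27.8% (L1P5), 18.4% (L2P3), 11.1% (L2P7), 23.7% (L2P8), 19.99% (L2P10) and 0.120% (L2P12), so 4 cells lay above the E14.5 positive range, L2P7 within it and L2P12 below it. Without L2P12 the summed share was 20.3%, against 19.3% with it, and without G27 the E14.5 positive share was 6.44%. Cox7a1 was 30.02 CPM in the summed E14.5 positive cells (8.01 to 56.6 CPM) and 209 CPM in P5 positive cells, where the 5 cells held between 72.9 and 411.5 CPM and lay above all E14.5 cells. Its log2 ratio was 2.80 (GC-centred 1.29), and that of Cox7a2 was 1.48 (GC-centred 0.91).

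Cox8b, the muscle form of subunit VIII, was missing from some embryonic cells. It took 3.995% of the reads of Cox8b and Cox8a in E14.5 positive cells (0.311% to 13.3%; 2.76% without G28) and 7.63% in E14.5 negative cells, where N8 and N10 had none and N7 had 40.3%. P5 positive cells held 29.1% (L1P5), 29.5% (L2P3), 8.21% (L2P7), 11.2% (L2P8), 7.63% (L2P10) and 0.00444% (L2P12), and the summed share was 10.4%, or 12.9% without L2P12. The share thus overlapped between the ages. The level in 5 cells lay above all E14.5 positive cells: Cox8b ranged from 0.104 to 24.4 CPM in E14.5 positive cells and from 54.3 to 248 CPM in the 5 P5 positive cells, with 0.0444 CPM in L2P12 (1 count). One E14.5 negative cell, N7, held 56.1 CPM and thus lay above L2P7 (54.3 CPM). The log2 ratio was 4.01 (GC-centred 2.20; 4.66 without G28), against 2.54 for Cox8a (GC-centred 0.53).

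**Figure D4:**
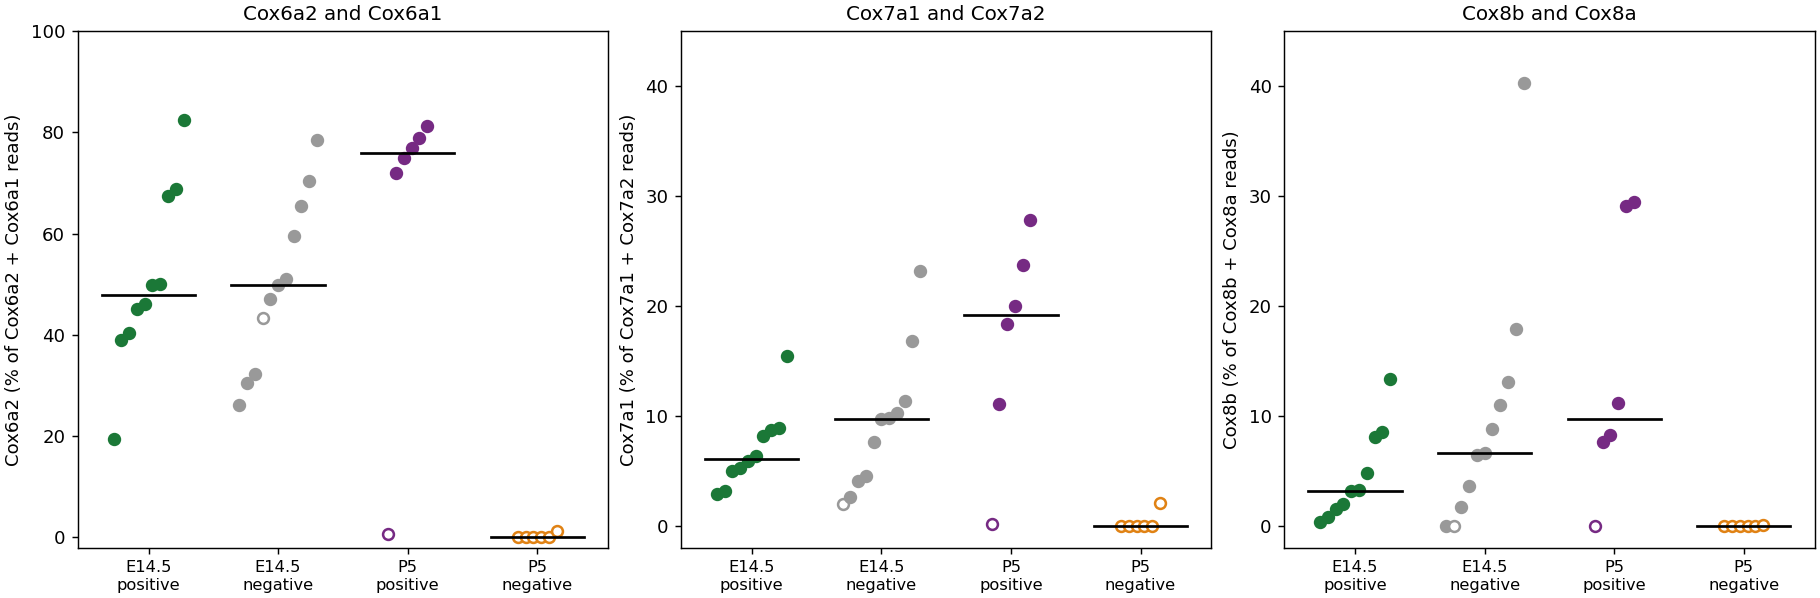
Share of the muscle isoform in the reads of 3 complex IV pairs, in each cell. Points are cells, black bars medians of a group, open points cells whose cardiomyocyte genes sum to less than those of another type; the middle and right axes end at 45%. In the 5 filled P5 positive cells Cox6a2 lies between 72.0% and 81.2%, and all open P5 cells are at or below 2.10% for the 3 isoforms.

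The start regions of 2 of these pairs are printed to show how the muscle and ubiquitous forms differ in sequence around the transcription start. Each runs from 250 bases before the start to 50 after it, 5′ to 3′ on the strand of the gene, from RefSeq on GRCm38.p6; capitals mark matches to 4 motifs on either strand. Those were CCGGAAGT (ETS family, which includes the nuclear respiratory factor NRF2), GCGCATGC (the core of NRF1), AAGATGGC (YY1) and the E-box CAGCTG bound by myogenic factors of the bHLH class. The positions are chr7:30183921-30184220 (plus strand) for Cox7a1, chr9:79759804-79760103 (minus) for Cox7a2, chr7:140900397-140900696 (minus) for Cox8b and chr19:7217567-7217866 (minus) for Cox8a.
Cox7a1: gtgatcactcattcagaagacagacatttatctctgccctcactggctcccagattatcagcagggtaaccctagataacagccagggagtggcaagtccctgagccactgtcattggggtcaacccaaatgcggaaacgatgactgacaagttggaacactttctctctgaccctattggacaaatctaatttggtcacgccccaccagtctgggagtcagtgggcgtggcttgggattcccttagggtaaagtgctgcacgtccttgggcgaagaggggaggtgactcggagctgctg
Cox7a2: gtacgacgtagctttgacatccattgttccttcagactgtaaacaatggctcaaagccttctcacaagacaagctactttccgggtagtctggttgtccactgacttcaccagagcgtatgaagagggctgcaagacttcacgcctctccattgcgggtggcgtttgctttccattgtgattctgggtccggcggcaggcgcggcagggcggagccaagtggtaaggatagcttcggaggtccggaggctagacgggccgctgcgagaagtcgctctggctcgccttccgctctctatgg
Cox8b: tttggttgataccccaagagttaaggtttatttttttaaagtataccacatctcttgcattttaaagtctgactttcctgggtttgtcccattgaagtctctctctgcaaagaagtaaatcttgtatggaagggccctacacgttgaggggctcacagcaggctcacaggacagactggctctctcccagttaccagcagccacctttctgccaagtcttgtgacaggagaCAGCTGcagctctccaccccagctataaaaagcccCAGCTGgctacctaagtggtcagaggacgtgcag
Cox8a: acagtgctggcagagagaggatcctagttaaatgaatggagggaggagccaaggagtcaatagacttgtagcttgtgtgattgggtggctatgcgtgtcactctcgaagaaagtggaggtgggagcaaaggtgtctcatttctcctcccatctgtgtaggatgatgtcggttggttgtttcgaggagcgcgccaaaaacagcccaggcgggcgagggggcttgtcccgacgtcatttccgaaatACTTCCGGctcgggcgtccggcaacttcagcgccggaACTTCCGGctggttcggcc

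The windows of the ubiquitous forms hold more CG pairs than those of the muscle forms: 20 in Cox7a2 against 7 in Cox7a1, and 19 in Cox8a against 2 in Cox8b. Cox8b holds the E-box, which 18.3% of all 27025 windows hold, and Cox8a the ETS motif, which 4.31% hold. Neither Cox7a1 nor Cox7a2 holds any of the 4, which says only that these letters are not in these windows. The window of Uqcrc1, the member at 50 CPM with the highest age ratio before GC centring, is at chr9:108936398-108936697 (plus strand) and holds the NRF1 motif on both strands in one overlapping stretch; 3.05% of all windows hold it.
Uqcrc1: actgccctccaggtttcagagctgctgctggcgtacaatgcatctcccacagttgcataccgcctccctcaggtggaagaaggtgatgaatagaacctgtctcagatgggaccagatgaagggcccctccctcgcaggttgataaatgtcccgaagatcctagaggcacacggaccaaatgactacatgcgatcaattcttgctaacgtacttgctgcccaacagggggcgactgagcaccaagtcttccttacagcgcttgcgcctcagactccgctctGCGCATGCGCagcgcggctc

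In the remaining pairs the second isoform took a low share of the reads. Cox6b2 held 0.0507% of the reads of its pair in E14.5 positive cells and 0.453% in P5 positive cells, all of it in L2P7 and L2P8. In P5 negative cells it held 2.74%, all of it in L2N10 (5.37%) and L2N12 (9.23%). Its 30 counts at E14.5 came mostly from G28 (1.17 CPM). Cox7b2 held 0.0914% of its pair in E14.5 positive cells and 0.0312% in E14.5 negative cells. Ndufa4l2 had 1 count in E14.5 positive cells, 29 in E14.5 negative cells and none at P5.

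Positive and negative cells of E14.5 were compared to ask whether the chain differs with the reporter at that age. Of the 80 subunits that passed the count limit, 1 was at least 2-fold higher in positive cells (22.4% of all genes were), none was at least 2-fold lower (29% of all genes), and 79 lay within 2-fold. The median log2 ratio was 0.06 (-0.02 without N10), against -0.16 over all 12632 genes. The 1 higher gene was Cox7b2, which rests on 2 positive cells. The summed counts of complexes I to V, in which cells with more reads weigh more, differed by between 1.01-fold and 1.06-fold. The median cell was lower in the positive group for complex I (10816 against 14539 CPM) and complex III (8914 against 11192 CPM). It was 4393 against 4552 CPM for complex II, 18875 against 18281 CPM for complex IV and 33754 against 36072 CPM for complex V. The cells overlapped in each complex.

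Ndufb10, an accessory subunit of complex I, had the lowest ratio among the subunits at 50 CPM, -0.76: it ranged from 314 to 850.1 CPM (median 384) in positive cells and from 358 to 1664 CPM (median 817) in negative cells. At the other end were Ndufa5 (0.49), Atp5e (0.47), Cox8a (0.41) and Atp5k (0.39), a complex I subunit, a rotor subunit, the ubiquitous subunit VIII and a membrane subunit of the synthase. The muscle isoforms lay within 2-fold, with log2 ratios of -0.05 for Cox6a2, 0.19 for Cox7a1 and -0.58 for Cox8b (-1.22 without G28).

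The small median did not hold in both series of cell numbers in the titles. Among cells numbered 1 to 10 it was -0.47, with 1 of 80 subunits at least 2-fold higher and 13 lower in positive cells (30.7% and 25.5% of all genes in those cells). Among cells numbered 21 to 30 it was 0.22, with 5 higher and none lower (23% and 36.6% of all genes). GC-centred, over the subunits at 50 CPM, the medians were -0.14 for numbers 1 to 10, which include N10, and 0.22 for numbers 21 to 30. What the cell numbers in the titles stand for is not given in the sources used here. Across the 21 cells of this age, the summed complex I genes had a Pearson r of 0.80 and a Spearman rho of 0.85 with the summed complex V genes, and the correlations with complex V were 0.56 for complex II, 0.58 for complex III and 0.45 for complex IV (Pearson). The sums share a total and an amplification within each cell. The summed subunits also had a Spearman rho of 0.51 with the summed cardiomyocyte genes.

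At P5 the 2 labels held different cells by their markers, and the subunits were higher in positive cells in nearly every gene. Of the 80 subunits that passed, 75 were at least 2-fold higher in positive cells (93.8%; 34.2% of all genes) and none was at least 2-fold lower (39.4% of all genes). The median log2 ratio was 2.49, against -0.29 over all 11566 genes. Without L2P12 it was 2.85 (-0.75 over all genes), with 79 subunits higher and none lower. The shares of all genes past 2-fold were not counted without that cell. Leaving out L2P12, 47 of 78 subunits (60.3%) had every positive cell above every P5 negative cell (6.14% of all genes at 50 CPM), and none had every positive cell below (2.71% of all genes). Summed, the ratios were 4.03-fold for complex I, 3.97-fold for complex II, 6.51-fold for complex III, 7.28-fold for complex IV and 6.44-fold for complex V, and without L2P12 they were 5.04, 4.96, 8.25, 9.18 and 8.14-fold in the same order. No P5 negative cell had its highest marker sum in the cardiomyocyte genes, so the reporter and the cell type cannot be told apart at this age.

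The muscle isoforms were close to 0 in the P5 negative cells. Cox6a2 had 13 of 82952801 counts there (9 of them in L2N4, the others in L2N10) and 2720 CPM among positive cells, which gave a log2 ratio of 14.1 (95% interval 13.3 to 14.99; 15.5 without L2N4). Cox8b had 6 counts, all in L2N7, against 131 CPM, a log2 ratio of 10.8 (95% interval 9.70 to 12.3), and none was left without L2N7. Cox7a1 had 3 counts, all in L2N4, against 209 CPM, a log2 ratio of 12.5 (95% interval 10.95 to 14.8), and none was left without L2N4. Their shares were 0.0395% (Cox6a2), 0.0201% (Cox7a1) and 0.0254% (Cox8b) of the reads of their pairs. In L2P12, the positive cell led by endothelial genes, the shares were 0.601%, 0.120% and 0.00444%. The ubiquitous partners were measured in these cells: Cox6a1 at 397 CPM, Cox7a2 at 180.0 CPM and Cox8a at 285 CPM in the summed P5 negative cells.

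After the isoforms, the highest ratios were those of Atp5g1 (5.65; 5480 against 109 CPM; 4.96 without L2P8) and Ndufs1 (4.71; 5.53 without L2N9). Ndufs1 was 0, 0 and 0.0691 CPM in L1N3, L2N4 and L2N10, 0.564 CPM in L2N7, and 61.6 and 37.9 CPM in L2N9 and L2N12; in the positive cells it was 0.622 CPM in L2P12 and between 262 and 895 CPM in the others. The lowest was Ndufb3 at -0.82 (-0.26 without L2N4). It held 5496 CPM in L1N3 and 9510 CPM in L2N4 but between 477 and 756 CPM in the 4 other negative cells. Sdhc (0.87), Ndufa8 (0.82) and Atp5l (0.85) also stayed within 2-fold, as did Cox6b2 (0.75; 2.54 without L2N12), and each of the first 3 had its highest P5 negative value in L2N4 (5815, 4075 and 1573 CPM). Without L2N4, Sdhc came to 2.47, Ndufa8 to 2.16 and Atp5l to 1.76; without L2P3, Atp5l came to -0.08 and Sdhc to 0.24.

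**Figure D5:**
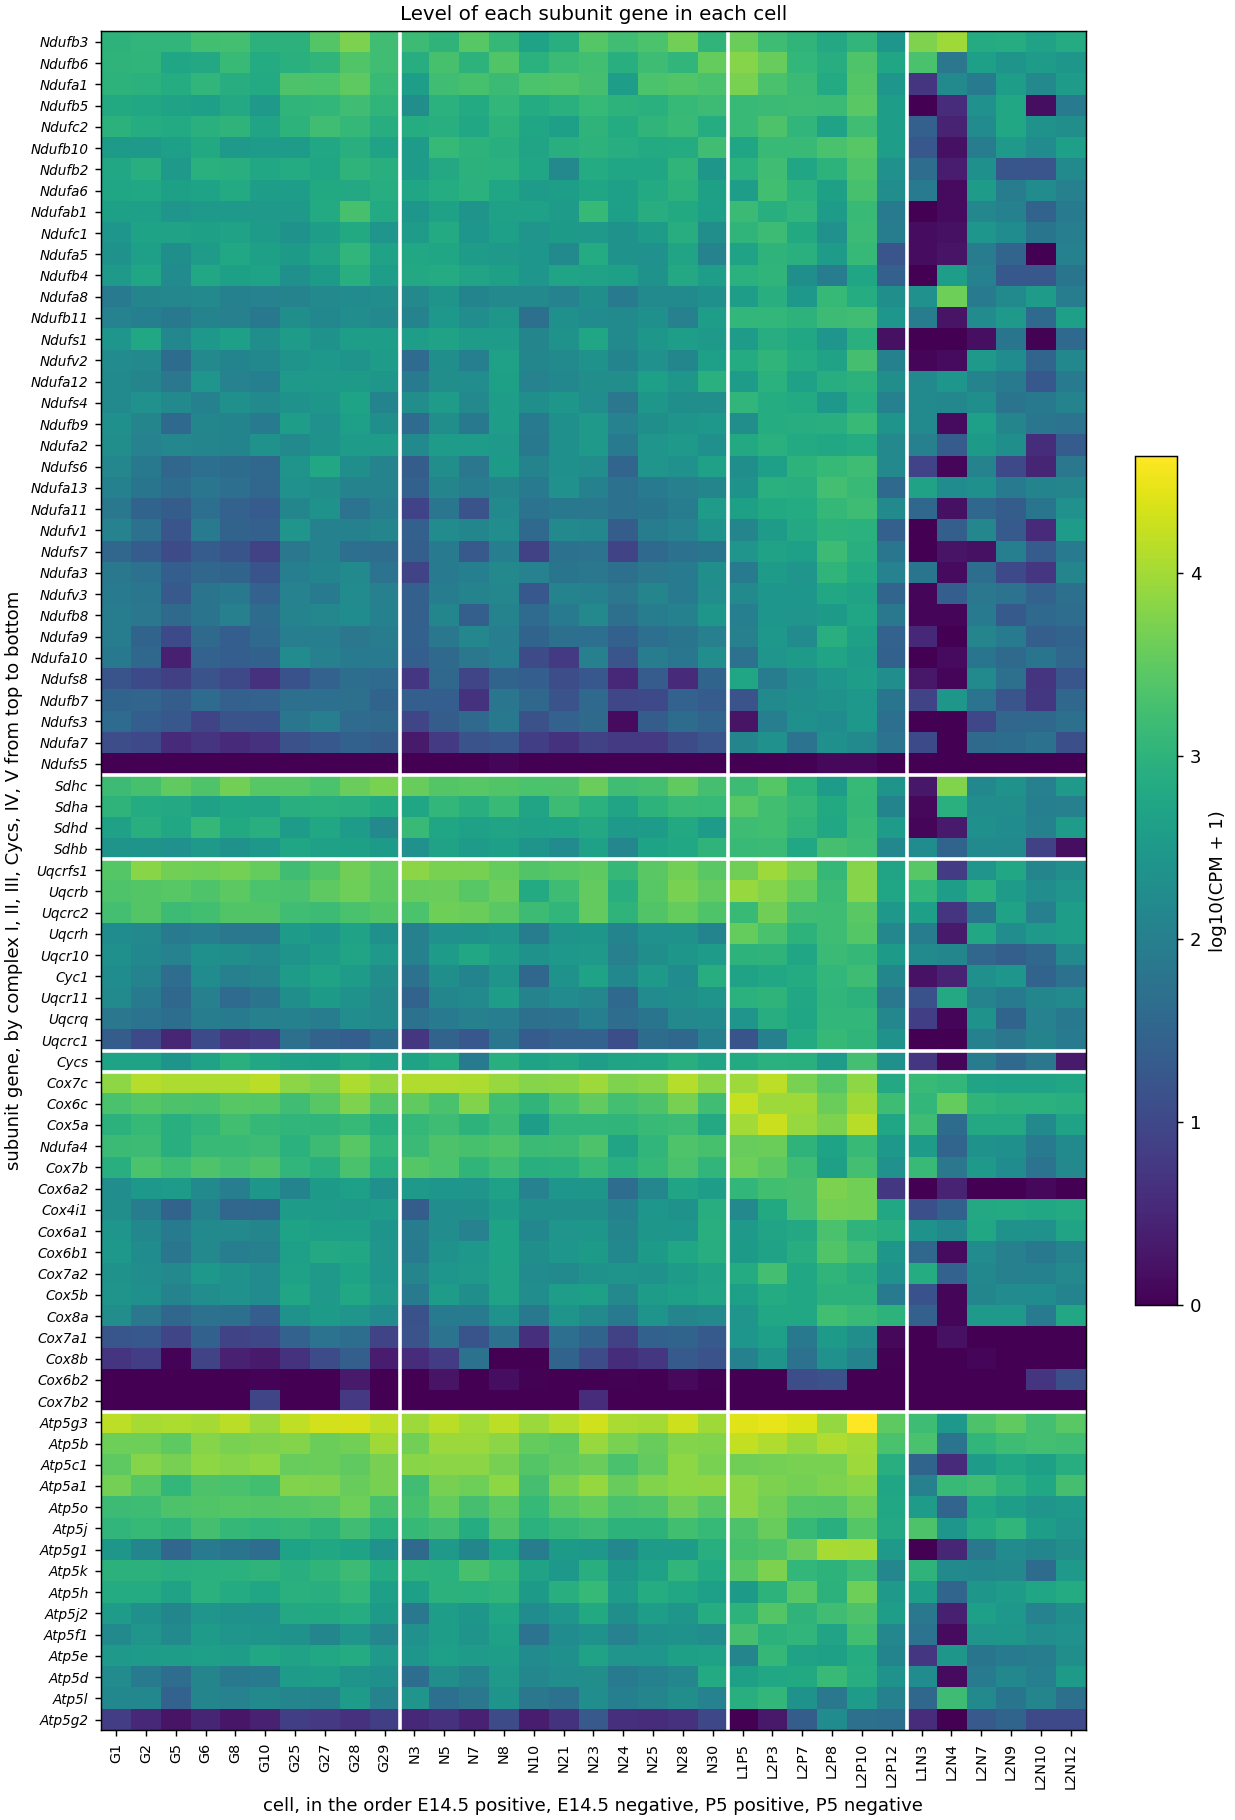
Level of 80 of the 81 subunit genes (rows, by complex) in each of the 33 cells (columns, by group) as log10(CPM + 1), from dark (0) to yellow. L2P12 is darker than the 5 other P5 positive columns (2.46% of reads against 12.4% to 21.8%), L2N4 has the brightest Ndufb3, Ndufa8, Sdhc and Atp5l of its group beside many genes near 0, and Cox6a2, Cox7a1 and Cox8b are dark in every P5 negative cell.

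The 11 genes that share a name with the subunits were read apart from them. By age, with all cells summed, 10 of them passed the count limit, with a median log2 ratio of 0.71. Of these, 4 were at least 2-fold higher and 1 lower, where 30.3% and 40.9% of all genes were. Atp5s, a relative of a coupling factor of the synthase, was the lower one (-1.38), and Ndufaf2, a complex I assembly factor, came to -0.79. Between the E14.5 groups 3 of the 11 were at least 2-fold lower in positive cells and none was higher: Ndufa4l2, Atp5sl and Ndufaf5. Those 3 are 27.3% of the set, against 29% of all genes. Of the 7 assembly factors Ndufaf1 to Ndufaf7, only Ndufaf5 reached 2-fold (-1.38); Ndufaf1, Ndufaf7, Ndufaf6 and Ndufaf4 came to -0.99, -0.66, -0.57 and -0.54, and Ndufaf2 and Ndufaf3 to 0.14 and 0.39. Ndufaf1, for example, ranged from 0 to 106 CPM (median 25.5) in positive and from 2.45 to 204 CPM (median 96.98) in negative cells, with overlap. At P5 10 of the 11 passed, and 9 were at least 2-fold higher in positive cells, against 34.2% of all genes. The other was Cox7a2l, a factor of respiratory supercomplexes, within 2-fold between positive and negative cells (1249 and 1297 CPM, log2 ratio -0.05).

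Pathway genes other than the subunits were read from 4 lists, with L2P12 included. Over all genes, 30.3% were at least 2-fold higher by age and 40.9% lower, with a median of -0.39. By age, 13 enzymes of the citric acid cycle had a median log2 ratio of 1.15, with 7 at least 2-fold higher and 2 lower (53.8% and 15.4%), from Dld (-1.31) to Idh3b (2.81). Idh3b, a subunit of isocitrate dehydrogenase, had 264 CPM at E14.5 and 1846 CPM at P5 in positive cells. Electron delivery and partner genes (15 in the table) had a median of 0.66, with 4 higher (26.7%) and none lower, from Etfa (-0.80) to Etfb (3.18), the 2 subunits of the same electron transfer flavoprotein.

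The 47 assembly and biogenesis factors, which count Ndufaf1 to Ndufaf7 again, had a median of 0.29. Of these factors, 12 were higher and 10 lower (25.5% and 21.3%), from Cox11 (-2.43) to Cox14 (1.72) among those at 50 CPM. The 13 genes for expression of the mitochondrial genome had a median of -0.73, with 3 higher and 6 lower (23.1% and 46.2%), near the shares of all genes. Only 3 of the 13 reached 50 CPM, with a median of 0.78 (GC-centred 1.87), so the sign turned with that limit; among them the lowest was Tfam, its main transcription and packaging factor, at -0.73, and the highest Mterfd3 at 2.87. Between positive and negative cells of P5 the medians of these lists were 2.28, 2.35, 1.95 and -0.92, in the same order, against -0.29 over all genes.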

How the data were processed

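Single sorted ventricular cells were lysed, their mRNA amplified as antisense RNA and made into libraries with a TruSeq kit, per the labels' protocols. The authors deposited raw counts of reads per gene, 1 column per cell. The submitters' processing notes name CASAVA 1.8.2, STAR 2.4.0j, HTSeq 0.6.1p1 and the build mm10; settings, strand use and the handling of multiply mapped reads are not given in the sources used here. All columns were mapped to a sample by title.

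From these counts, CPM per cell, summed counts per group, exact Poisson and Clopper-Pearson intervals (95%) and log2 ratios were computed with Python 3.11.15, numpy 2.4.6, pandas 2.3.3 and scipy 1.17.1. List medians use 0.5 added counts, and a group at 0 is set against 3 counts. Antisense amplification copies molecules many times, so intervals cover counting error only. Transcript length and GC content came from GENCODE M21 (GRCm38, the assembly of mm10) for 92.2% of gene names and all 92 members; GC-centred ratios subtract the median of 20 bins of genes at 50 CPM. Of the 81 subunits, 67 had a RefSeq start window.

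Members and gene lists were chosen with earlier results of these data known. Members named with values were the isoform genes, Sdha to Sdhd, Cyc1, Cycs, core subunits and, per comparison, the 5 highest and 5 lowest ratios at 50 CPM; other named genes were chosen after their values were seen. One core subunit is counted in the sums and lists but is not reported here by name. On simulated counts (14861 gene names, 200 changed, P5 positive over E14.5 positive), 100% of the changed genes were recovered to within 0.1 of the log2 ratio put in. The simulated cells varied by counting error alone and the changed genes lay at 50 CPM or more. This checked the calculation only and says nothing about the spread between cells. Alternatives were equal weight or medians of cells, edgeR 4.0.16 and DESeq2 1.42.0 factors, totals without the top 20 genes, no count limit, subsets of cells and leaving out each cell. No 2 cells held the same values: the most alike pair, G1 and G2, had r 0.867 across genes.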

Additional observations from a re-analysis of the deposited data

Results flagged for a closer look

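Within each group of 4 to 10 cells, 9 measures (the summed subunits, the 5 complexes and 3 isoform shares) were searched for a cell far from the others by Dixon's limit. Of 27 groups of values tested, 8 held such a cell. About 1.35 would by chance alone if the groups of values were independent. They are not, because the summed subunits hold the 5 complexes, so the 8 cannot be weighed against chance. For Cox7a1 and Cox8b in P5 negative cells, the flagged cell was the only cell with reads of the isoform. E14.5 negative, with 11 cells, was not searched.

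Among E14.5 positive cells, G28 held 114320 CPM of summed subunits, the next cell 86201 CPM, and 25046 CPM of complex I genes, the next 16330 CPM. G27 held 15.4% Cox7a1 in the reads of its pair, the next cell 8.88%.

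Among P5 positive cells, L2P12 held 0.601% Cox6a2 in the reads of its pair, the next cell 72.0%. Its 14 cardiomyocyte genes summed to 117.9 CPM and its 8 endothelial genes to 18963 CPM.

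Among P5 negative cells, L2N4 held 6733 CPM of complex II genes, the next cell 788 CPM, with Sdhc alone at 5815 CPM. The same cell held 1.18% Cox6a2 (next 0.123%) and 2.10% Cox7a1 (next 0), while L2N7 held 0.0695% Cox8b and the other cells none. These 3 shares rest on 9, 3 and 6 reads of the muscle isoform.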

How the results depend on the processing

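The alternatives were chosen with earlier results of these data known, and centring on like GC content after the data were seen. By age, the subunit median of 1.49 became 1.76 with medians of the cells and 1.87 with DESeq2 size factors (which move the median of all genes by 0.38). It became 1.796 without cells whose cardiomyocyte genes fall below another type and 1.99 against E14.5 cells numbered 1 to 10. Against E14.5 cells numbered 21 to 30 it fell to 1.20, while the median of all genes moved from -0.39 to 0.19. With GC centring it was 0.83 over the subunits at 50 CPM, whose median was 1.41 before centring. The 3 lower subunits became 1 with medians of the cells and 1 with both GC centring and those cells left out; GC-centred values exist only at 50 CPM, and that limit alone left 2, or 1 without those cells. Leaving out each cell gave a median of 1.20 (without L2P8) to 1.796 (without L2P12), 44 to 53 higher subunits and 2 (without L2P12) to 5 (without L2P3) lower ones. Cox6a1 changed sign, from 1.86 to -0.14 with GC centring and to -0.00174 with both changes. Among the 382 values of the 32 named genes of that comparison, no other gene called at 2-fold did. Outside the named genes, Atp5d (1.75 to -0.25) and Ndufv3 (1.81 to -9.26e-04) also changed sign with GC centring.

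Between the E14.5 groups, the median of 0.06 became -0.10 with equal weight per cell, -0.19 with medians of the cells, -0.0601 with DESeq2, -0.47 and 0.22 within numbers 1 to 10 and 21 to 30, and 0.13 with GC centring. The 1 higher subunit became 0 with medians of the cells and with GC centring, with or without N10, where the 50 CPM limit alone left 0, and 5 within numbers 21 to 30. The 0 lower became 1 with equal weight, 3 with medians of the cells, 1 with no count limit and 13 within numbers 1 to 10. Leaving out each cell gave -0.10 (without G28) to 0.14 (without N28), 0 (without G10) to 1 higher and 0 to 2 (without G28) lower.

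Between the P5 groups, the median of 2.49 became 2.82 with equal weight, 3.07 with medians of the cells and 2.90 with GC centring, and the 0 lower subunits became 1 with equal weight. Leaving out each cell gave 2.36 (without L2P10) to 2.85 (without L2P12), 73 to 79 higher and 0 to 1 (without L2P3) lower. Leaving out cells below another type could not be run there, because no P5 negative cell would be left.

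A change of over 1.5-fold when 1 cell was left out occurred for 13 of 32 named genes by age, 3 of 36 between the E14.5 groups and 21 of 31 between the P5 groups, and the 2-fold call ended for 2, 0 and 1 of them: Cox6b1 and Ndufb3 by age, and Cox6a1 at P5 (0.85 without L2P8). No paired analysis was possible because no result here comes from a test and the labels do not say that cell numbers shared by 2 groups mark a shared animal.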

Other observations

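Sequence motifs were counted in the RefSeq start windows of the 67 subunits that had one (300 bases each, both strands). The NRF1 core GCGCATGC was in 11 of them (16.4%) and in 3.05% of all 27025 windows: Ndufa6, Ndufa8, Ndufa11, Sdhb, Uqcr11, Uqcrc1, Cycs, Cox6a1, Atp5g2, Atp5k and Atp5l. The YY1 motif AAGATGGC was in 9 (13.4%; 3.19% of all), the ETS motif CCGGAAGT in 5 (7.46%; 4.31% of all) and the E-box CAGCTG in 6 (8.96%; 18.3% of all), Cox8b among them. These are matches of letters and no measure of binding.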
